A study of Mus musculus with 2 samples.

Results

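The SoxB genes Sox1, Sox2, Sox3 and Sox21 encode transcription factors with a DNA-binding HMG box, and their open chromatin was examined in the midbrain of newborn mice. The members were the 4 genes of these names among 21938 protein-coding genes of the GENCODE M21 annotation (assembly mm10). For each gene, all deposited peaks and hotspots were taken that overlapped its domain, meaning the gene with 10 kb of flank at either end, or the window of 500 bp on either side of its transcription start site (TSS). The genes were chosen by name with peak results of these libraries already known, so their counts are given as descriptions with no test. The 4 domains held 31 of 228203 replicate 1 peaks, 49 of 122593 replicate 2 peaks, and 10 of the 74833 regions in which peaks of both libraries overlapped by at least 1 bp, called shared regions here.

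DNase-seq cuts nuclei with the nuclease DNase I and sequences the released ends, so that a peak marks DNA open to the enzyme, often where regulatory proteins displace nucleosomes. The tissue was midbrain of B6NCrl mice at 0 days after birth, labelled healthy, with males and females pooled, and it formed 1 group of 2 biological replicates. There was no other genotype, treatment or age to compare with. Both biosamples trace to the same pooled donor entry. Technical and biological differences between the 2 libraries cannot be told apart, and neither was tested. The linked protocol is named for cultured cells and for DNase treatment of crosslinked nuclei. Each peak is 150 bp wide and comes with the authors' signal, a whole number that was not scaled between libraries. Its median was 44 in replicate 1 and 18 in replicate 2. Each signal below is therefore read only against the list it came from. The read depth behind the peaks is unknown. In bulk tissue, fewer cells of a type and less open chromatin per cell cannot be told apart.

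SoxB1 factors (Sox1, Sox2 and Sox3) keep neural stem and progenitor cells undifferentiated, and largely overlap in function. They bind DNA together with partner factors, among them POU proteins that recognise the octamer sequence. Sox21 belongs to the SoxB2 group, binds similar sequences, represses where SoxB1 proteins activate, and promotes neuronal differentiation. In the newborn midbrain most neurons have already been born, and Sox2 is known to remain in radial glia, astrocytes and ependymal cells. As a check of the tissue label, a shared region lay at the promoters of 4 of 6 midbrain markers (En1, En2, Otx2 and Meis2, but not Pax7 or Lmx1b), 6 of 6 neuronal markers, 2 of 6 forebrain markers, 2 of 6 hindbrain and spinal cord markers and 1 of 6 genes of lens, pituitary and germ cells. Across all protein-coding genes the share was 61%. Replicate 1 alone did not separate midbrain from hindbrain and spinal cord markers, with promoter peaks at 5 of 6 of each, among them Hoxa2 (signal 96), Hoxb2 (94) and Hoxb4 (93), while replicate 2 had 4 of 6 and 2 of 6. An open promoter is not a measure of expression.

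The sequences below are those of the most prominent sites at each gene, and they are shown because the results turn on them. They were read from RefSeq's GRCm38.p6 (mm10) and are written 5′ to 3′ on the strand of the gene. Distances here and below run from the GENCODE TSS to the centre of the region, with negative values upstream. Parts in an untranslated region were left out. Capitals mark exact matches on either strand to the motif letters that were searched: ACAAAG and ACAATG for SOX factors, the octamer ATGCAAAT, the E-box CAGCTG, the homeobox core TAATTA, the nuclear factor I letters TTGGCA, the CTCF core AGGGGGC, and the GC box GGGCGG. GC box and CTCF core matches overlap in the promoters of Sox2 and Sox3. The 150 bp about the centre of the Sox1 promoter region (12395156 to 12395325) hold 1 GC box, which the printed part does not include.
Sox2 promoter, the part of the shared region before the RefSeq start site, chr3:34649836-34649994, plus strand: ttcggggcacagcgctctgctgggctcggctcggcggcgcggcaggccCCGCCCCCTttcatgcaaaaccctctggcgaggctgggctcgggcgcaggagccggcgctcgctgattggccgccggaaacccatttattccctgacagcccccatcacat
Sox2 site at −2.48 kb, chr3:34647836-34648005, plus strand: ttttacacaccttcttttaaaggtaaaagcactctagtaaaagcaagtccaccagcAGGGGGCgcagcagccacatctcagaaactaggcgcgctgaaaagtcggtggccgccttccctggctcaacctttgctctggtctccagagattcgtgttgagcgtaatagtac
Sox2 site at −7.62 kb, chr3:34642696-34642865, plus strand: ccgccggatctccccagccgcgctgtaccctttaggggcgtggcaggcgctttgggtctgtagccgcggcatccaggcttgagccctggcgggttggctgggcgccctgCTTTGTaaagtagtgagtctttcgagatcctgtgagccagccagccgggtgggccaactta
Sox2 site at −9.52 kb, chr3:34640796-34640965, plus strand: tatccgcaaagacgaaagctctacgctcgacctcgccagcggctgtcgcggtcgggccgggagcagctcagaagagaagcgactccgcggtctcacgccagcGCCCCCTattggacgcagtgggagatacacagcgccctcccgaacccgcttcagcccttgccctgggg
Sox1 promoter, the part of the shared region before the TSS, chr8:12395156-12395294, plus strand: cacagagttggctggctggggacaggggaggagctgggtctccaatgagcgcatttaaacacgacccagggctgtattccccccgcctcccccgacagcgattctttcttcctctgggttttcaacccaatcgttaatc
Sox1 site at 5.59 kb, chr8:12400736-12401025, plus strand: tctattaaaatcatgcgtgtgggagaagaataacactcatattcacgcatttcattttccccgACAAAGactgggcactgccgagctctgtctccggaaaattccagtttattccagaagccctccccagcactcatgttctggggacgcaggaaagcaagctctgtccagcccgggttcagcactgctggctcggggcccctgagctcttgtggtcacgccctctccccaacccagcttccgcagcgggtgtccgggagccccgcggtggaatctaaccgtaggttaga
Sox3 promoter, a peak of replicate 1 alone, chrX:60893456-60893605, minus strand: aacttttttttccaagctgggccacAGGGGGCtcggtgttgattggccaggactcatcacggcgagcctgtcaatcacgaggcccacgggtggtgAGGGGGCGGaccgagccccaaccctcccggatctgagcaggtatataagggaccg
Sox21 promoter, the part of the shared region before the TSS, chr14:118237031-118237185, minus strand: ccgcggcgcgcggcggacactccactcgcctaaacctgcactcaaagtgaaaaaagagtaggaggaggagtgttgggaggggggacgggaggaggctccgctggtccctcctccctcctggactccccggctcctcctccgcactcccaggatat
Sox21 site at 6.38 kb, chr14:118230556-118230745, minus strand: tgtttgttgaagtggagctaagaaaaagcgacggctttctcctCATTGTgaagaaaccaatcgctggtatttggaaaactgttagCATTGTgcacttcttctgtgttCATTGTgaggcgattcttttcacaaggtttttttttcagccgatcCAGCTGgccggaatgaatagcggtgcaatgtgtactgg

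All 4 promoters had a peak in each library, but only those of Sox1, Sox2 and Sox21 had a region shared by both. Among all protein-coding genes, 68.9% had a promoter peak in replicate 1, 62.6% in replicate 2 and 61% a shared promoter region, so that the 3 of 4 members are close to the background. The strongest promoter peaks of Sox1, Sox2 and Sox21 had signals of 106, 107 and 95 in replicate 1 and of 39, 45 and 43 in replicate 2. That of Sox3 had 58 and 16. The Sox3 promoter was thus the weakest of the 4 in both libraries, and the other 3 had similar signals within each list. The median over all shared promoter regions was 93 in replicate 1 and 36 in replicate 2.

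**Figure D1:**
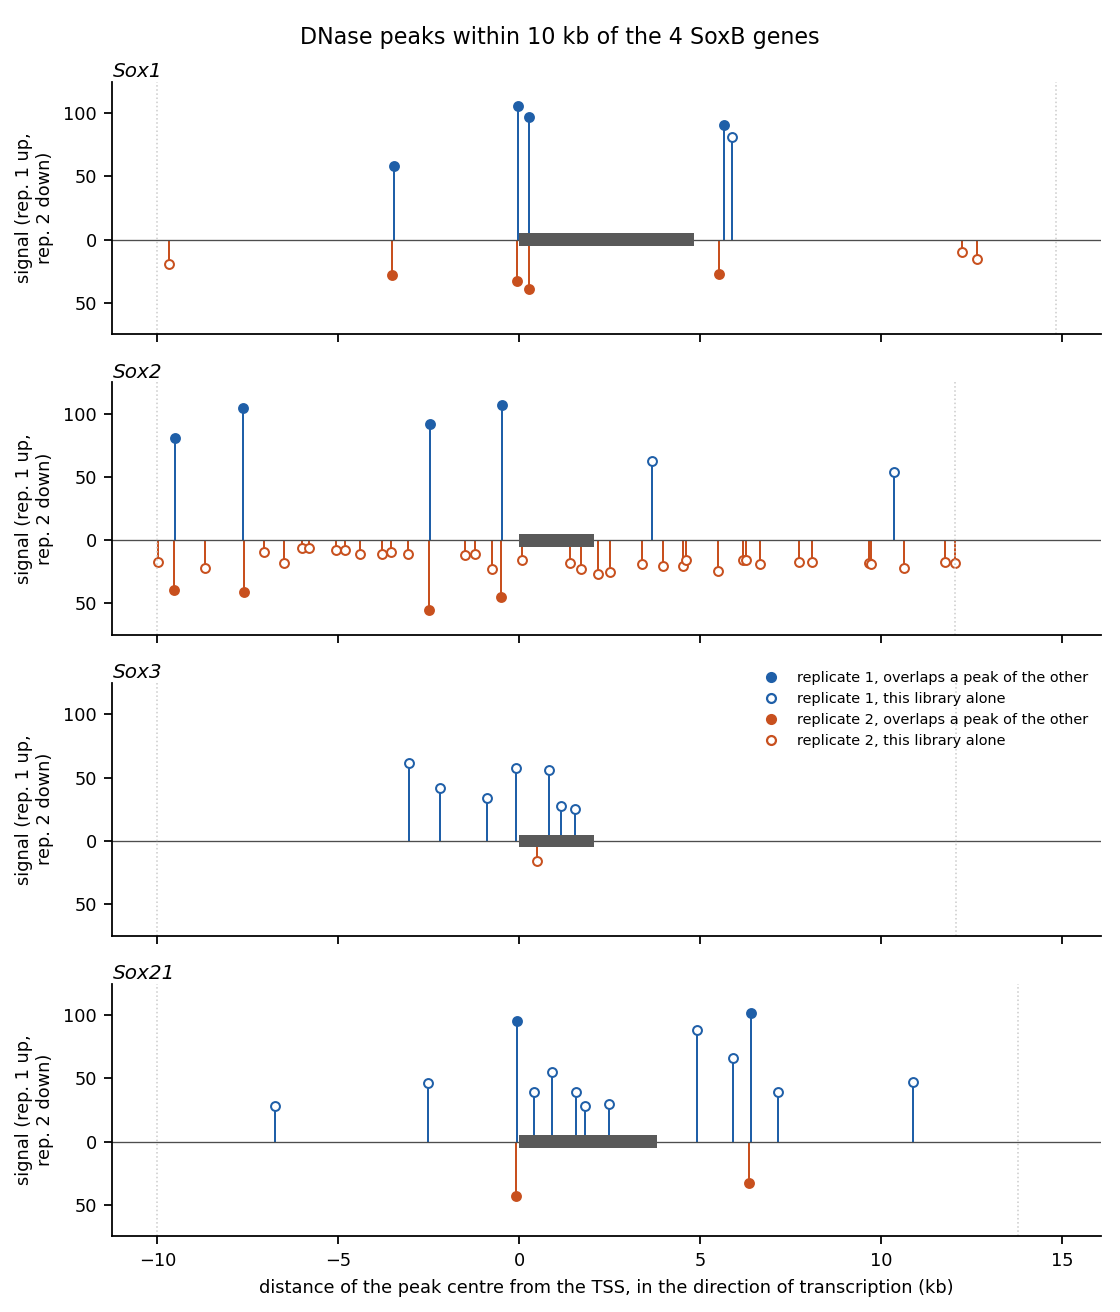
Peaks in the domains of the 4 SoxB genes, by distance of the peak centre from the TSS (kb, in the direction of transcription) and by the authors' signal, with replicate 1 drawn upward and replicate 2 downward on scales that cannot be compared. Filled points overlap a peak of the other library, open points do not, grey boxes are the genes and dotted lines the ends of the domains; Sox2 has 4 tall filled sites in both directions and 35 open points in replicate 2, and Sox3 has no filled point.

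Sox2, the SoxB1 gene best known for maintaining stem cells, is a single-exon gene on chromosome 3 (34650405 to 34652461, plus strand) that lies inside an intron of the long noncoding gene Sox2ot. In both libraries 4 upstream sites were open, and no peak of replicate 1 lay in the gene itself. The promoter site (34649836 to 34650005) had signals of 107 in replicate 1 and 45 in replicate 2, above 94.4% and 88.4% of their lists. The site at −2.48 kb (34647836 to 34648005) had 92 and 55, and 55 was the highest signal of any replicate 2 peak in the 4 domains. It ranked above 97.2% of shared distal regions, those over 500 bp from any annotated TSS, in replicate 2 and above 82.0% in replicate 1.

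The sites at −7.62 kb (34642696 to 34642865) and −9.52 kb (34640796 to 34640965) had signals of 105 and 81 in replicate 1 and of 41 and 39 in replicate 2. The first of these is within 500 bp of the start of Gm42692, an unclassified transcript, and counts as a promoter region of that gene. All 4 Sox2 sites had peak centres that differed by 20 bp between the libraries. Just outside the 10 kb limit, another shared site lay at −11034 bp with signals of 96 and 41, so that the limit cuts through a group of upstream sites of like strength. Peaks of replicate 1 alone lay 3666 and 10346 bp downstream of the TSS with signals of 63 and 54.

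The start of Sox2 differs between annotations: the RefSeq TSS is at 34649995 and the GENCODE TSS at 34650405. The shared promoter region covers the RefSeq start, and its centre is at −0.484 kb from the GENCODE start. With a window of 100 bp about the GENCODE TSS, Sox2 had no shared promoter region. The promoter sequence holds a GC box and a match to the CTCF core letters that overlap each other, and the sites at −2.48 and −9.52 kb hold 1 CTCF core match each. Among all shared regions, 10.4% of promoter and 8.04% of distal regions held that core in the 150 bp about their centre. A GC box was held there by 41.1% of promoter regions.

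Replicate 2 had 39 peaks in the Sox2 domain, against 6 in replicate 1, although its whole list was the shorter. The 4 shared sites had replicate 2 signals of 39 to 55. The other 35 had signals of 6 to 27 with a median of 17, close to the median of the whole list (18). The shared sites thus stood above the rest of the replicate 2 peaks at Sox2 with no overlap of their signals. This was not particular to Sox2. At Sox1, shared replicate 2 peaks had 27 to 39 and the others 10 to 19. Over all shared regions the median replicate 2 signal was 36 at promoters and 22 at distal sites. The 35 unshared Sox2 peaks had a median GC content of 43.3%, against 50% over the whole list. By position, the 19 replicate 2 peaks upstream of the gene had a median signal of 11, the 3 in the gene 18 and the 17 downstream 19.

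Successive replicate 2 peaks around Sox2 formed a single row when gaps of up to 2 kb were allowed, a limit chosen after the peaks had been seen. The row held 52 peaks over 29.0 kb (34637036 to 34665985), reaching from 13.4 kb before to 15.6 kb after the TSS. The nearest replicate 2 peaks beyond it were 59630 and 26230 bp away. The row thus stood apart from other peaks of its library, and in the same stretch replicate 1 had 8 peaks. Replicate 2 had 14 rows of 52 or more peaks in the genome, Sox2's included, which held 0.748% of its list and touched the domains of 15 protein-coding genes, and replicate 1 had 1 such row.

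**Figure D2:**
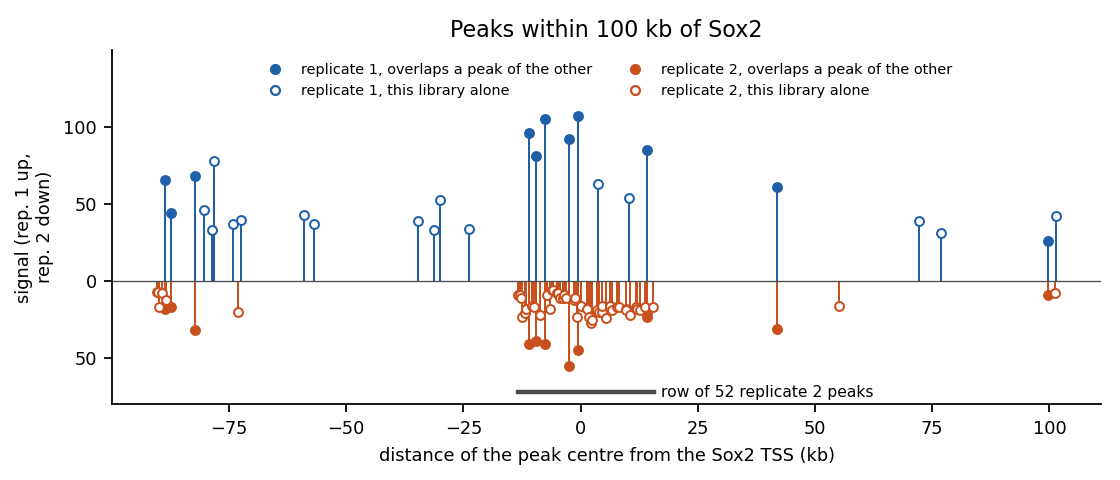
Peaks within 100 kb of Sox2, by distance of the peak centre from the TSS (kb) and by the authors' signal, with replicate 1 upward and replicate 2 downward; filled points overlap a peak of the other library and open points do not. The bar marks the row of 52 replicate 2 peaks, in which the filled sites upstream of Sox2 (39 to 55) stand above the open ones (6 to 27).

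Within the row, 7 replicate 2 peaks overlapped a peak of replicate 1 and had signals of 21 to 55, and 45 did not and had signals of 6 to 27. These peaks formed 6 shared sites: the 4 sites of the domain, the site at −11034 bp and a site at 14.1 kb, where replicate 1 had 85 and replicate 2 had 23. The downstream site was the only one of them whose replicate 2 signal lay in the range of the unshared peaks. Hotspots, intervals of varying width called by the authors, showed the same asymmetry, covering 57.5% of the Sox2 domain in replicate 2 and 6.66% in replicate 1. Of 31 replicate 2 hotspots there, 9 were in the strongest class (−log10 q of 100), against 3 of 6 in replicate 1. Some of these 9 held unshared peaks only. That at 34646416 to 34647218 covered peaks with signals of 11 and 9, and that at 34655732 to 34656107 a peak of 24. The strongest hotspot class was thus not limited to the shared sites. Signal and GC content of the unshared peaks are given above; their part in the count at Sox2 was not tested.

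By number of peaks, Sox2 was the member farthest from other genes. Of 6231 protein-coding genes whose domain was within 25% of its length, 3 had 39 or more replicate 2 peaks, Sox2 included, and the median was 2. In replicate 1 its 6 peaks were above 73.7% of these genes and its 4 shared regions above 78.4%. Its shared regions were thus moderately many, and its replicate 2 count was near the top of these genes. Without the row's peaks found in replicate 2 alone, the 4 domains together had 14 replicate 2 peaks in place of 49. More peaks in replicate 2 than in replicate 1 were found at 13.4% of protein-coding genes and, of the members, at Sox1 and Sox2.

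**Figure D3:**
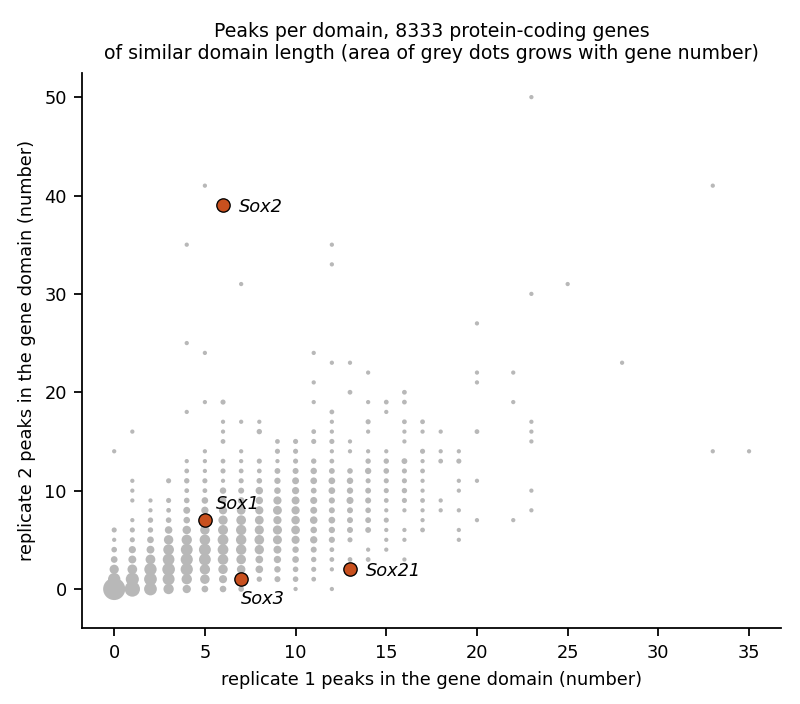
Number of peaks in the gene domain in replicate 1 (horizontal) and replicate 2 (vertical) for 8333 protein-coding genes with domains of 20.1 to 31.0 kb, with the SoxB genes as orange points. Sox2 (6 and 39) lies far above the bulk, Sox1 (5 and 7) lies within it, and Sox3 (7 and 1) and Sox21 (13 and 2) have more replicate 1 than replicate 2 peaks.

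Farther from Sox2 the shared sites were few. Extending the domain to 50 kb on each side brought the shared regions from 4 to 7, and 100 kb brought them to 11. Beyond the row these were a site at 41.9 kb (61 and 31), 3 sites from −88.5 to −82.1 kb within Sox2ot (44 to 68 in replicate 1 and 17 to 32 in replicate 2), and a weak site at 99.8 kb (26 and 9). None of these distant sites reached the signals of the upstream group next to the gene.

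Sox1, an early marker of neural ectoderm, is a single-exon gene on chromosome 8 (12395295 to 12400126, plus strand) inside the noncoding gene Sox1ot. A partner in the other library was found for 4 of 5 replicate 1 peaks and 4 of 7 replicate 2 peaks. Over all autosomes 33.6% of replicate 1 peaks and 65.4% of replicate 2 peaks lay in shared regions. With so few peaks at Sox1, nothing is read from its shares in either library. A pair of shared regions covered its start. The first (12395156 to 12395325) had signals of 106 in replicate 1 and 33 in replicate 2. The second, centred 276 bp after the GENCODE TSS in the 5′ UTR (12395496 to 12395645), had 97 and 39. The order of the pair therefore differed between the libraries.

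A shared region at −3.48 kb from Sox1 (12391716 to 12391905) had signals of 58 and 28. Another lay at 5.59 kb, just downstream of the gene (12400736 to 12401025), with 91 and 27, where the peaks overlapped by few bases and fell out of the shared set when 75 bp of overlap was required. Another replicate 1 peak, of 81, lay next to it, and this pair was the only run of adjacent peaks at Sox1 when gaps of up to 150 bp were allowed. Unshared replicate 2 peaks at the edges of the domain had signals of 10, 15 and 19, below every shared site of the gene in that list. At 100 kb on each side Sox1 had 13 shared regions, as many as Sox21 and more than Sox2 or Sox3. The strongest in replicate 1 were at 91.3 kb (111 and 26) and 35.0 kb, the latter in an exon of Sox1ot (108 and 30).

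The Sox1 start region held an octamer, the sequence that POU partners of SoxB1 proteins recognise. It lay 242 bp after the GENCODE TSS and 18 bp after the RefSeq TSS, within the shared region of 97 and 39. Of 27025 RefSeq promoter sequences, which span a start site with most bases upstream, 1.75% held this octamer, and of shared promoter regions 0.772% did. The sequences of Sox2 and Sox21 in the RefSeq table held none, and Sox3 was not matched there. The 3′ shared site of Sox1 holds 1 SOX match, ACAAAG, 5504 bp from the TSS, outside the 150 bp about its centre.

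Sox3, the SoxB1 gene on chromosome X (60891366 to 60893430, minus strand, single exon), had no shared region. Its 7 replicate 1 peaks had signals of 25 to 62, with a median of 42, and its only replicate 2 peak had 16. With the replicate 1 list shortened to the length of replicate 2, the 7 became 3. At least 1 shared region was found in the domains of 78.7% of protein-coding genes, a share over domains of every length. Among 6237 genes whose domain was within 25% of the length of Sox3's, the median was 1 shared region. The replicate 1 peaks lay in the coding sequence (28 and 56), the 3′ UTR (25), the promoter (58, centred at -101 bp) and at -901, -2201 and -3041 bp (34, 42 and 62), the last 3 in an intron of the antisense transcript Gm14662. The highest was thus the one farthest upstream and not the promoter peak, and no peak lay downstream of the gene.

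The replicate 2 peak of Sox3 was in the coding sequence, centred 499 bp after the TSS, with its centre 320 bp from the nearest replicate 1 peak. Both libraries therefore had a peak in the promoter window without overlap, which was found at 185 of 21938 protein-coding genes (0.843%). In hotspots, whose widths vary, an interval of replicate 1 in the strongest class (60892426 to 60892942) overlapped the replicate 2 interval (60892785 to 60892973, −log10 q of 1.79), and the promoter then counted as shared. Sox3 is the only member on a sex chromosome, and the sexes were pooled. Shared promoter regions were found at 43.9% of genes on chromosome X and 62.3% on autosomes, and median signals were 35 and 15 on X against 44 and 18 on autosomes; their part in the values at Sox3 was not tested. Even 100 kb on each side gave Sox3 only 1 shared region, at 67.8 kb (82 and 15).

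Sox21, the SoxB2 member, lies on chromosome 14 (118233232 to 118237030, minus strand, single exon). It had the most peaks of the 4 in replicate 1, 13, and only 2 in replicate 2. With the replicate 1 list shortened to the length of replicate 2, the 13 became 7. Of 7634 genes of similar domain length, 205 had 13 or more replicate 1 peaks, Sox21 included. Both replicate 2 peaks fell on a replicate 1 peak, and 11 of 13 replicate 1 peaks had no partner, beside autosomal shares in shared regions of 65.4% for replicate 2 and 33.6% for replicate 1; with so few peaks nothing is read from this. Its promoter region (118237016 to 118237185), which also covers an exon of the noncoding gene Gm4675 on the other strand, had signals of 95 and 43. The site at 6.38 kb, beyond the 3′ end of the gene (118230556 to 118230745), had 102 and 33.

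These 2 shared sites were also the strongest of Sox21 in replicate 1. The 11 replicate 1 peaks without a partner had signals of 28 to 88, with a median of 39, and the highest of them (88 and 66) lay on the same 3′ side, 4919 and 5899 bp from the TSS. In the gene body 5 peaks had signals of 28 to 55, of which a pair in the coding sequence was the only run of adjacent peaks of Sox21. The unshared peaks of the 3′ side (39 to 88) thus reached higher than those of the gene body, with overlapping ranges. The GC content of the unshared peaks had a median of 58.7%, against 50.7% over the replicate 1 list. At 100 kb on each side Sox21 had 13 shared regions, some of them within the neighbouring gene Gpr180. The strongest (132 and 71) lay 100009 bp downstream, next to a shared region at 99379 bp in a Gpr180 intron. Which gene these regions act on was not tested.

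The 3′ site of Sox21 held 3 copies of the SOX sequence ACAATG, at 6328, 6370 and 6392 bp from the TSS, all on the strand opposite to the gene, and 1 E-box. Of 50993 shared distal regions, 7.74% held ACAATG in the 150 bp about their centre and 11 (0.0216%) held 3 or more copies. The E-box was found in 14.2% of these distal regions. The limit of 3 copies was chosen after the site had been seen. In the 150 bp about the centres of the members' shared regions, ACAAAG occurred in 1 of 10, the Sox2 site at −7.62 kb. ACAATG occurred there in the 3′ site of Sox21 alone. Background shares for ACAAAG were 7.68% of promoter and 13.5% of distal regions, so that 1 of 10 is close to the background. A match is a description of the letters and not evidence of binding.

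CpG content was above the all-gene median around the start of each member, but not at every shared site. In the 1 kb about the TSS, the ratio of observed to expected CpG was 0.961 at Sox2, 0.832 at Sox3, 0.805 at Sox1 and 0.735 at Sox21, against a median of 0.553 over protein-coding genes. Of the 5 distal shared regions of the members, all had a ratio of 0.437 or more, above 74.5% to 99.2% of shared distal regions, whose median was 0.265. The 5 promoter-class shared regions lay on both sides of their class median of 0.737: the Sox21 promoter (0.487) and the Sox2 site at −7.62 kb (0.646) were above only 24.95% and 39.5% of that class, and the other 3 were above 57.3% to 90.3%. The 1 kb about the TSS of Sox3, which had no shared region, was not lower in CpG than that of Sox1 or Sox21.

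Adjacent peaks were common in replicate 2 in general. With gaps of up to 150 bp, 28.7% of replicate 2 peaks and 14.8% of replicate 1 peaks lay in runs. In the members' domains 20 of 49 replicate 2 peaks did, all of them at Sox2 in 10 pairs, and 4 of 31 replicate 1 peaks did, in the pairs at Sox1 and Sox21. Touching or overlapping pairs of replicate 2 peaks numbered 3, also at Sox2. No run of 3 or more adjacent peaks was found at any member with that gap.

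Against the 16 other Sox genes, the members' promoters were neither the strongest nor the weakest. A shared promoter region was found at 10 of the 16 (62.5%), close to the 61% of all genes. The SoxC genes Sox4, Sox11 and Sox12, which act in newborn neurons, had the highest promoter signals of the family in replicate 2 (72, 63 and 62), and in replicate 1 Sox4 and Sox11 were highest (140 and 138). Sox9, a SoxE gene of glia, had 131 and 32. Sox5, Sox6 and Sox13 of the SoxD group had 92 to 103 and 36 to 39, a range close to that of Sox1, Sox2 and Sox21.

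Among the other Sox genes, Sox4 had the densest domain, with 13 shared regions or 52.4 per 100 kb. Next came Sox9 with 35.2, Sox12 with 28.6, Sox11 with 24.7, Sox18 with 18.3 and Sox8 with 16.1. The members had 18.1 at Sox2, 16.1 at Sox1, 8.40 at Sox21 and 0 at Sox3. The median over protein-coding genes was 4.99. The SoxB2 gene Sox14, the relative closest to Sox21, had 2 replicate 1 peaks in its domain but none at its promoter in either library. The oligodendrocyte and neural crest gene Sox10 had a promoter peak in replicate 1 only (36), Sox18 likewise (38), Sox17 in replicate 2 only (12), and Sox7 and Sry, the testis-determining gene, had none.

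**Figure D4:**
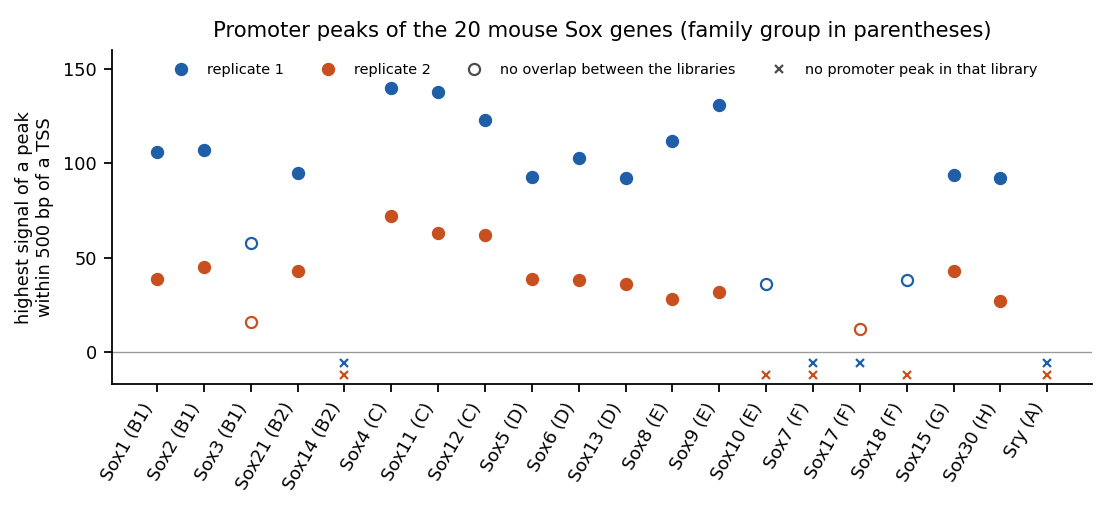
Highest signal of a peak within 500 bp of a TSS for the 20 Sox genes, in replicate 1 (blue) and replicate 2 (orange), whose scales cannot be compared; filled points have a shared region, open points do not and crosses mark no peak in that library. Sox4 (140 and 72) is highest, Sox1, Sox2 and Sox21 (95 to 107 and 39 to 45) are in the middle, and Sox3 (58 and 16) is low in both.

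Promoters of genes that act with SoxB proteins in progenitors were often open. Of 22 partners, targets and progenitor regulators, 21 had a promoter peak in replicate 1, 19 in replicate 2 and 19 a shared promoter region (86.4%, against 61% of all genes). The list was chosen with earlier results of these data known, and 6 of 6 neuronal markers also had a shared promoter region. The POU partners Pou3f2 (133 and 72), Pou3f3 (134 and 59), Pou3f4 (118 and 34) and Pou3f1 (60 and 27) had one, as did Nes, which encodes the intermediate filament nestin and is a known Sox2 target (102 and 28), Fabp7 of radial glia (108 and 42) and the Notch effectors Hes1 (119 and 43) and Hes5 (119 and 45). Notch1 (104) and the proneural gene Neurog2 (69) had a promoter peak in replicate 1 only, and Fgf4, a target of Sox2 in embryonic stem cells, had none. The promoter signals of Pou3f2 and Pou3f3 were thus above those of all 4 members in both libraries. More replicate 2 than replicate 1 peaks, as at Sox2, were found in the domains of 6 of the 22 (27.3%, against 13.4% of all genes), among them Pax6 (40 and 18) and Id4 (17 and 8), a choice of count made after the values had been seen. The same held for 3 of 6 genes in each of the midbrain, forebrain and neuron lists, for none of the 6 hindbrain and spinal cord markers and for 2 of the 16 other Sox genes, so it was not particular to SoxB partners.

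The genes with the most similar pattern were found by the Euclidean distance on log2(count + 1) over 3 counts, the peaks of each library and the shared regions, among genes of similar domain length. For Sox1, 13 genes had the same counts (5, 7 and 4), the closest in length being Lypla2, Doc2a and Amt. For Sox21 (13, 2 and 2), Ier5 and Nhlh1 had the same counts and Pou3f1 followed (11, 2 and 2, distance 0.222). For Sox3 (7, 1 and 0) the nearest were Ankrd23 (6, 1 and 0), Gm15217 and Bmp4 (both 9, 1 and 0). For Sox2 (6, 39 and 4) they were 9230102O04Rik (5, 41 and 5, distance 0.352), 4930412O13Rik (4, 35 and 4) and 2310009B15Rik (5, 24 and 2). Over 2 libraries, the exact counts of Sox1 were thus found at 13 of 8332 other genes of similar domain length. Those of Sox2 were found at 0 of 6230 and those of Sox3 at 0 of 6236.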

How the data were processed

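DNase-seq peak and hotspot lists of 2 midbrain libraries (1 group) were used. Per the notes that accompany them, the authors made every list from filtered mm10 alignments of a single replicate, without pooling. For aligner, peak caller and thresholds: not given in the sources used here. The authors deposited a signal per peak; its definition is not in those notes. The hotspot value is the −log10 of a q value deposited by the authors. After removal of 215 and 221 peaks on other sequences than chromosomes 1 to 19, X and Y, and of 22 and 24 repeats of a position, 228203 (replicate 1) and 122593 (replicate 2) peaks remained; read depth is unknown.

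Overlapping or touching peaks were merged into regions, and a region was shared when peaks of both libraries overlapped by at least 1 bp. Gene models were GENCODE M21, and bases were read from the RefSeq GRCm38.p6 copy, which no peak exceeded in length. Promoter regions lay within 500 bp of any annotated TSS. All 72 list genes matched by symbol. Members and lists were chosen with earlier results of these data known. With 1 group and members chosen this way, no test was made. Named were all members with their shared regions and strongest unshared peaks, list genes, domain neighbours and the 3 genes of most similar counts per member. Gpr180, within 100 kb of Sox21, was named as well. Alternatives covered domain width, promoter window, overlap, list length, stronger peaks, hotspots, run gap and each library alone. Counting was tested on simulated lists (Python 3.11.15, numpy 2.4.6, samtools 1.23.1).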

Additional observations from a re-analysis of the deposited data

How the results depend on the processing

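No paired analysis was possible because the labels give a single group. The 3 members with a shared promoter region remained between 2 and 4 under every alternative: hotspots in place of peaks added Sox3, and the 100 bp window left out Sox2. Shared regions in the 4 domains numbered 10, and 9 to 10 with 75 bp of overlap, the stronger 50% of each list, a shortened replicate 1 list or hotspots; they moved to 3 in gene bodies alone and 38 with 100 kb on each side. Each library without the other gave 31 to 49 peaks. Replicate 1 peaks in the domains (31) moved to 11, 51 and 99 with 0, 50 and 100 kb on each side. Replicate 2 peaks (49) moved to 6 and 109 with 0 and 100 kb, to 27 in the stronger 50% and to 14 without the Sox2 row's unshared peaks. Peaks in runs, 4 in replicate 1 and 20 in replicate 2, became 0 and 6 with no gap, 14 and 40 with 500 bp and 25 and 43 with 2000 bp, and the 4 became 2 in the shortened list. Hotspots in the strongest class were 12 of 27 and 9 of 41. Of the alternatives for single members, 82 values stayed within 1.5 times and 67 did not. The 2000 bp gap and the removal of the Sox2 row were chosen after seeing the data. Without read totals, no difference between the libraries could be weighed by depth.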
